A study of Mus musculus with 12 samples.

Results

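Mitochondrial ribosomal protein genes encode the protein part of the ribosome that works inside mitochondria. They were taken as every gene whose only symbol in the array's annotation was Mrpl or Mrps followed by a number and at most 1 letter. This gave 71 of the 22180 genes on the array that had a symbol of their own, 43 named Mrpl after the large subunit and 28 named Mrps after the small subunit. Of the 80 annotated array rows that matched, the row with the highest mean was used where a gene had several. The mouse genes Mrpl30, Mrpl33, Mrpl41, Mrpl43, Mrpl44, Mrpl53 and Mrps6 lay only on rows shared with another symbol and were not analysed here.

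Messenger RNA of the plantaris, a calf muscle, was measured in male mice aged 12 weeks on 12 Affymetrix arrays whose probes cover whole transcripts. The mice were wild type or REDD1 knockout, and each genotype either remained sedentary or underwent 1 session of aerobic exercise and was sampled 1 hour after it, which gives 4 groups of 3 arrays. All mice had food withheld for 3 hours before the exercise and were anaesthetised with isoflurane, so the sedentary groups share the fast and the anaesthetic. The labels name no strain, knockout construct, litter or kind of exercise, and do not say whether muscles were pooled, so p-values measure the spread between samples that the labels list separately. REDD1, the product of Ddit4, restrains the growth-promoting kinase complex mTORC1. Replicate numbers follow the order of the samples and pair nothing across groups.

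The mitochondrial ribosome translates only the few messenger RNAs of the mitochondrial genome, which encode core subunits of the respiratory chain and ATP synthase. Its ribosomal RNAs come from mitochondrial DNA, whereas all of its proteins are encoded in the nucleus, made in the cytosol and imported. Some of these proteins descend from the ribosome of the bacterial ancestor, and others were added in the mitochondrial lineage. Muscle depends on this machinery because the respiratory chain cannot be built without it.

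The stretch of DNA before the start of each gene was compared first, as a feature that the choice of genes did not use. RefSeq promoter windows, 250 bases before to 50 bases after the annotated start in build GRCm38.p6, were available for 62 of the 71 genes, in 68 windows. Exact letters were searched on both strands, and a window was counted once per motif. The letters GCATGCGC, a core of the site of NRF1, a factor that acts on many nuclear genes for mitochondrial proteins, were in 7 windows, or 10.3%. The share was 2.71% of all 32851 windows and 4.59% of the windows of genes tested on the array. The letters CCGGAAGT, the core bound by ETS factors such as GABPA, also called NRF2, were in 10 windows, or 14.7%, against 3.89% and 6.86%. The letters AAGATGGC, a core of the site of YY1, were in 12 windows, or 17.6%, against 2.75% and 3.84%. At least 1 of the 3 was in 27 windows, or 39.7%, against 8.83% of all windows and 14.3% of those of tested genes.

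These shares describe letters in windows, not binding, and were not tested. Positions of the letters were also counted. Of 13 NRF1 matches, 12 lay wholly before the start, as did 9 of 10 ETS matches, whereas 4 of 12 YY1 matches did. The GC box letters GGGCGG were in 54.4% of the windows, against 35.7% of all and 59.0% of tested genes' windows. The TATA box letters TATAAA were in 7.35%, against 13.6% and 8.06%. In 25 windows, or 36.8%, another gene started within 1000 bases on the opposite strand, against 11.3% and 15.9%.

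Windows are shown for genes described later, each as the 250 bases before the start, 5′ to 3′ on the gene's strand, with matches to the NRF1 letters in capitals. The windows read this way were those of 14 genes with 1 of the 4 smallest p-values in a contrast. Of these 14, only Mrpl39 and Mrpl22 hold any of the NRF1, ETS and YY1 letters before the start. Mrpl55 is shown for the other 12. Other genes described later hold such letters in their full windows, among them Mrpl3, Mrpl27, Mrpl48 and Mrps22 (ETS) and Mrps18b (NRF1). Mrpl39 (chr16:84735245-84735494, minus strand) holds 2 overlapping matches, 1 on each strand, because the letters read nearly alike in both directions. Mrpl22 (chr11:58171414-58171663, plus strand) holds 1 match on the opposite strand, which begins 33 bases before the start. Mrpl55 (chr11:59202236-59202485, plus strand) holds none of the 3 motifs here and has another gene starting nearby on the opposite strand.
Mrpl39: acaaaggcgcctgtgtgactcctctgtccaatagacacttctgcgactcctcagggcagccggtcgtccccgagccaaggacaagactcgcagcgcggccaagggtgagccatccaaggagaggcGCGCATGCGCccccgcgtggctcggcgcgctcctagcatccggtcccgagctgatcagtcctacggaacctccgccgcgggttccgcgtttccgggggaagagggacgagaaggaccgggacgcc
Mrpl22: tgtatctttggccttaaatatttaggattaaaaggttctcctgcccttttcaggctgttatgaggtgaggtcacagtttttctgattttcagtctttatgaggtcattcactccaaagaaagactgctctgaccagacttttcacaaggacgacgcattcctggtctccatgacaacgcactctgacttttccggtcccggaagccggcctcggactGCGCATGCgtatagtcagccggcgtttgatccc
Mrpl55: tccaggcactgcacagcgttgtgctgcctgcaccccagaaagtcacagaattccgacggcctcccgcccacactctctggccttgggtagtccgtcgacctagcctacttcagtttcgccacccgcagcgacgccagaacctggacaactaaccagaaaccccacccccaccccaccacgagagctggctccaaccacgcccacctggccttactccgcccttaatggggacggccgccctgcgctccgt

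Values are log2 levels, in which a difference of 1 is a factor of 2, and they are compared only within a gene because probes differ between genes. A gene was tested if it exceeded the table's median of 4.56 on at least 3 arrays, which 13747 genes did. All 71 mitochondrial ribosomal protein genes passed, and 68 of them were above that level on all 12 arrays. The exceptions were Mrpl27 (11 arrays), Mrps36 (10) and Mrps14 (8), so their values lie near the dim end. The 10 skeletal muscle markers were above the table's median on every array, with mean levels of 12.2 to 13.6. Ddit4, checked against the genotype labels, was lower on every knockout array than on any wild-type array of the same condition. The log2 difference passed after exercise (-2.37, SE 0.22, limma adjusted p = 0.000110) but not in sedentary muscle (-0.71, SE 0.22, adjusted p = 0.411). Ddit4 was also 1.04 higher after exercise within the knockout, which did not pass (SE 0.22, adjusted p = 0.0679), so the check rests mostly on the exercised arrays. In bulk muscle, fewer cells of a type and less RNA per cell cannot be told apart.

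Mitochondrial ribosomal protein genes varied little between arrays. Their pooled SD within groups ran from 0.0607 to 0.330 with a median of 0.136, against a median of 0.163 over all genes tested. The median of their mean levels was also higher, 7.36 against 6.19, and SDs were not compared at equal level. The steadiest were Mrpl48 and Mrpl45, both proteins of the large subunit found only in mitochondria, with pooled SDs of 0.0607 and 0.0753. Mrpl15, a large-subunit protein shared with bacteria, followed at 0.0767. The most variable were Mrpl20 (0.330), Mrpl27 (0.292) and Mrpl28 (0.265), all large-subunit proteins of bacterial type. Mrpl20 read 6.28, 5.10 and 5.88 on the knockout sedentary arrays, the highest and the lowest of its 12 values, and stayed within 5.56 to 6.01 elsewhere.

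**Figure D1:**
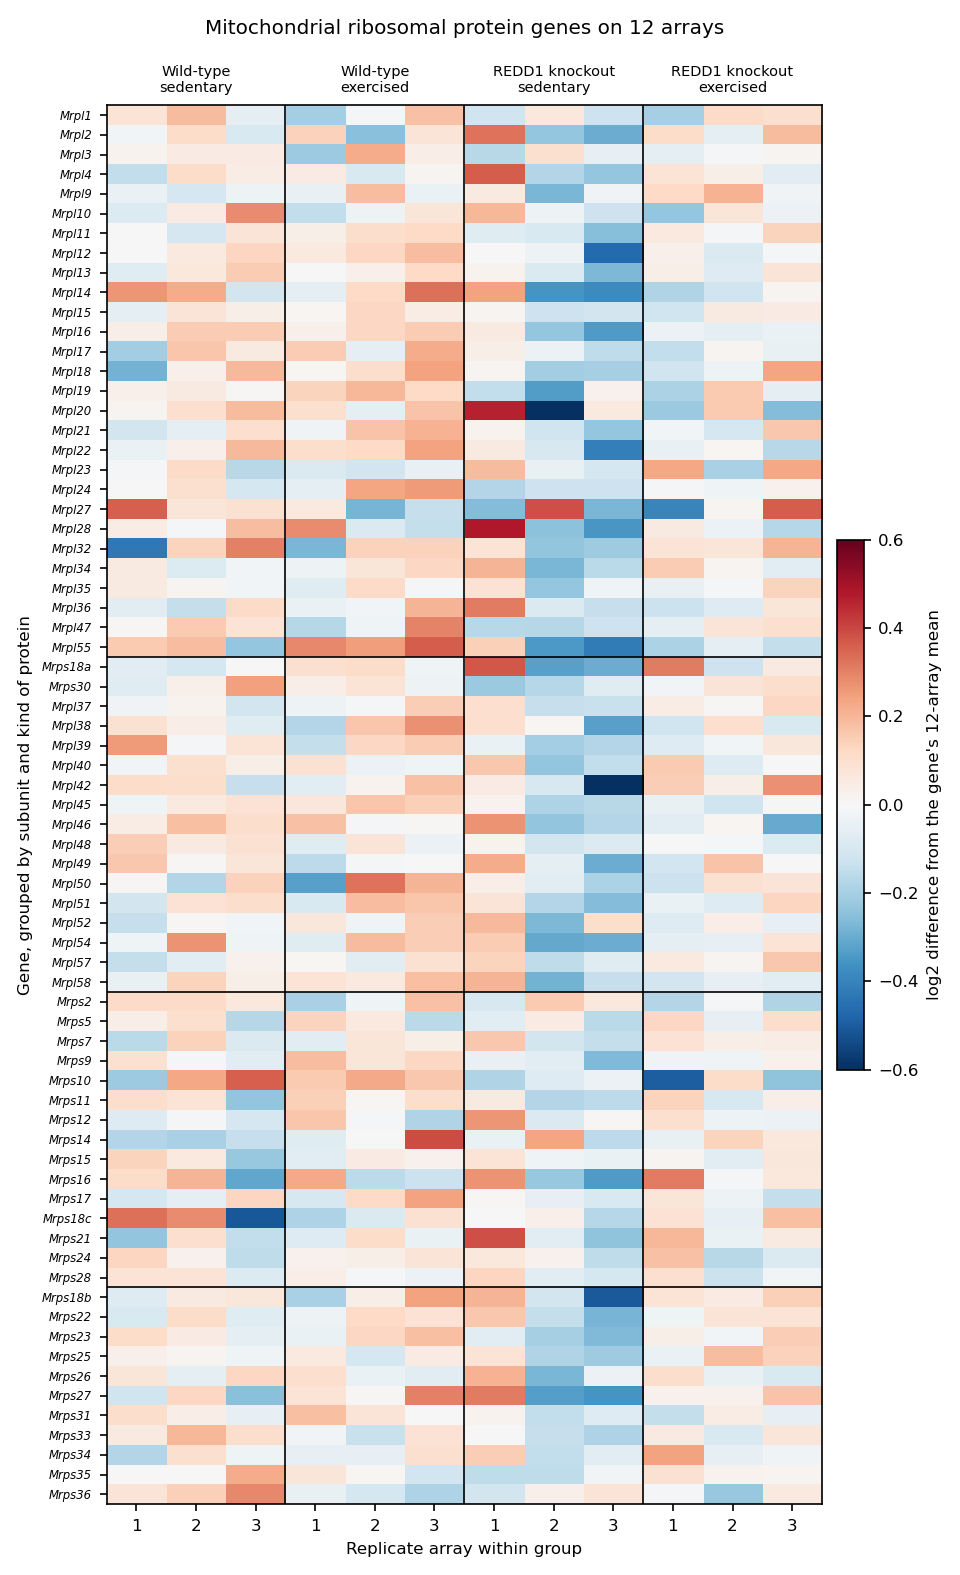
Log2 difference of each of the 71 mitochondrial ribosomal protein genes (rows) from its own mean over the 12 arrays (columns, replicates within each group), grouped by subunit and kind of protein. Blue cells fill most of knockout sedentary replicates 2 and 3, where 61 and 65 genes lay below their own mean, whereas replicate 1 of that group had 18.

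No mitochondrial ribosomal protein gene passed the test in any of the 7 contrasts fitted. They compared exercise with rest in each genotype, the sizes of those 2 responses, the genotypes at rest and after exercise, and, over all 12 arrays, the average response and the average genotype difference. The test was limma's moderated test with p-values adjusted by Benjamini-Hochberg over all 13747 genes, with calls at an adjusted p under 0.05. The count was also 0 in every contrast without moderation of the variances. That fit called only 0 to 67 of all 13747 genes by contrast, so a count of 0 among members says little. The 95% interval of each gene, taken alone, shows how large a change can have been missed. These intervals are not adjusted for the number of genes. In every contrast, those of all 71 genes lay within a 2-fold change in either direction. A bound of 1.5-fold held for 69 genes for exercise in wild type, 68 for exercise in the knockout, 68 for genotype in either condition, 57 for the difference of effects and 71 for both averages.

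The first comparison asked how these genes stood 1 hour after exercise in wild-type muscle. Their median log2 difference was 0.03, against -0.02 over all genes tested, with 44 higher and 27 lower (55.0% of all genes were lower). Genes called in this contrast made up 0.567% of all tested, and no member was among them. At an unadjusted p under 0.05 there was 1 member, against 8.21% of all genes, and 0 to 3 when each array was left out in turn, the highest without wild-type exercised replicate 1. The median was 0.07 without that array, 0.01 without wild-type exercised replicate 3 or wild-type sedentary replicate 1, and 0.06 without wild-type sedentary replicate 2. For counts with an array left out, here and below, no share over all genes was computed. The 3 exercised arrays all lay above the 3 sedentary ones for 3 members (Mrpl19, Mrpl55 and Mrps14), against 5.75% of all genes. They all lay below for 3 members (Mrpl27, Mrpl49 and Mrps36), against 7.14%. Both shares are near the background.

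Mrpl55, a large-subunit protein, read 8.03, 8.05 and 7.64 in wild-type sedentary muscle and 8.16, 8.12 and 8.23 after exercise. The exercised arrays were higher without overlap, but the sedentary values spread widely, with replicate 3 below the other 2. The difference was 0.26 (SE 0.14, limma adjusted p = 0.703). Mrps14, a protein of the small-subunit head, read 4.49, 4.47 and 4.53, then 4.59, 4.67 and 5.06. Its difference of 0.27 (SE 0.15, adjusted p = 0.718) came mostly from replicate 3, and all 3 sedentary values lay below the table's median level. Mrps36, which carries a ribosomal name but is known as a part of the oxoglutarate dehydrogenase complex of the citric acid cycle, read 4.75, 4.81 and 4.96, then 4.63, 4.57 and 4.49. It was lower by 0.28 (SE 0.13, adjusted p = 0.606). Mrpl24, a protein near the exit of the peptide tunnel, overlapped between groups and differed by 0.15 (SE 0.10, adjusted p = 0.782).

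In knockout muscle more members lay higher after exercise than before. The median difference was 0.09, against -0.00 over all genes, with 56 higher and 15 lower (50.6% of all genes were lower). None passed, against 0.276% of all genes called. At an unadjusted p under 0.05 there were 2 members, against 8.93% of all genes. The exercised arrays lay wholly above the sedentary ones for 7 members (Mrpl11, Mrpl24, Mrpl47, Mrps9, Mrps23, Mrps30 and Mrps35), against 7.13% of all genes, and wholly below for 0, against 6.77%. Without knockout sedentary replicate 1 the median was 0.18 and 13 members had an unadjusted p under 0.05. Without knockout sedentary replicate 3 the median was 0.03 with 1 such member, and without knockout exercised replicate 3 there were 0. The share of all genes at that mark was not computed in these fits, so these counts have no background.

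Mrpl42, a mitochondrion-specific protein, read 8.73, 8.59 and 8.06 in knockout sedentary muscle and 8.83, 8.72 and 8.96 after exercise. The groups overlapped, and the low value of replicate 3 set most of the difference of 0.38 (SE 0.15, limma adjusted p = 0.420). Mrps23, a small-subunit protein, read 7.87, 7.73 and 7.67, then 7.97, 7.92 and 8.08. It did not overlap and differed by 0.23 (SE 0.10, adjusted p = 0.488). Mrpl11, which forms the base of the stalk that recruits translation factors, read 6.81, 6.79 and 6.63, then 6.94, 6.88 and 7.02. Its difference was 0.20 (SE 0.10, adjusted p = 0.565). Mrps30, which despite its name sits in the large subunit, read 7.01, 7.06 and 7.16, then 7.21, 7.31 and 7.34, a difference of 0.21 (SE 0.10, adjusted p = 0.581).

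**Figure D2:**
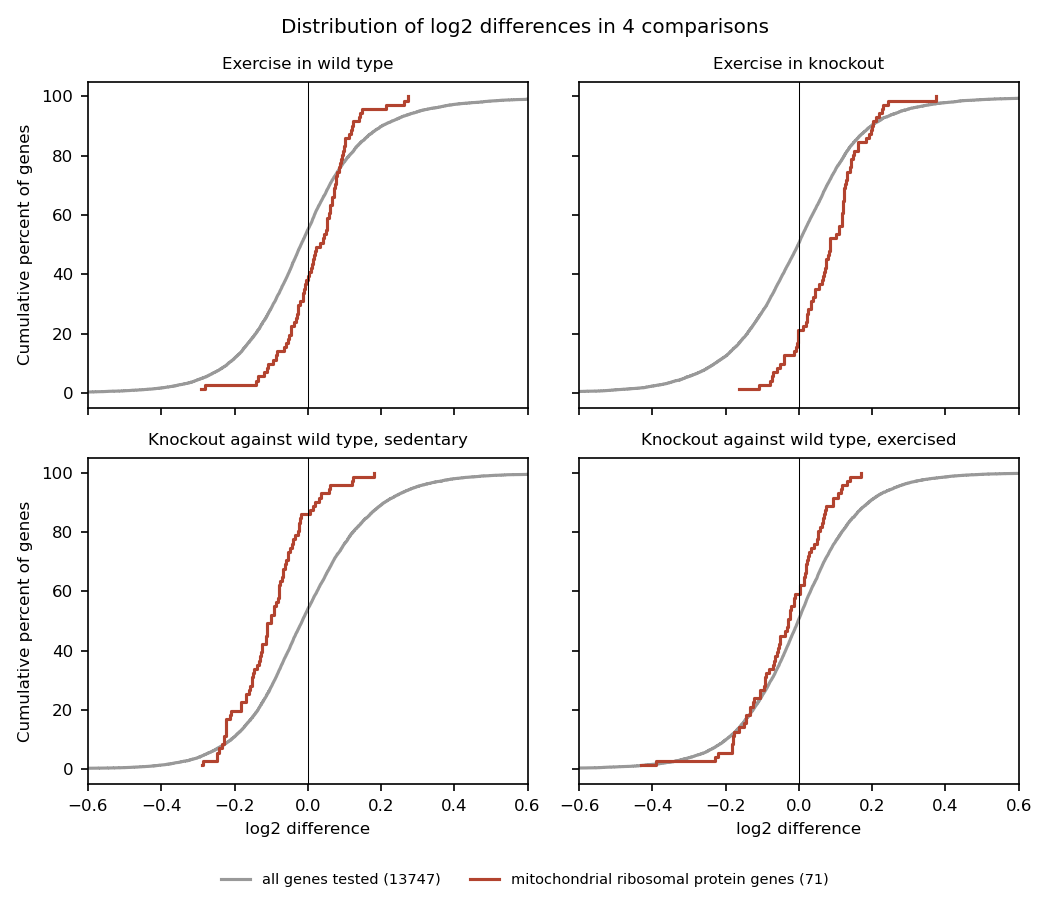
Cumulative percent of genes (vertical axis) by log2 difference (horizontal axis) in 4 comparisons, for the 71 mitochondrial ribosomal protein genes (red) and all 13747 genes tested (grey). The red curve lies left of the grey one for knockout against wild type in sedentary muscle (medians -0.10 and -0.01) and right of it for exercise in the knockout (medians 0.09 and -0.00).

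The difference of the exercise effects, knockout minus wild type, asked whether the genotypes responded unequally. The median over members was 0.04, against 0.02 over all genes, with 48 above 0 (46.8% of all genes lay below 0). No gene on the array passed this test, so the share called was 0%, and no member had an unadjusted p under 0.05, against 4.51% of all genes. Left out in turn, the arrays gave 0 to 2 such members. The smallest unadjusted p-values among members belonged to Mrps33 and Mrps35, both small-subunit proteins, and to Mrps30 and Mrpl42. Their differences of effects were 0.26 (SE 0.14), 0.24 (SE 0.14), 0.25 (SE 0.14) and 0.36 (SE 0.21), each with a limma adjusted p of 0.997. Without knockout sedentary replicate 1 the median was 0.14, without replicate 2 it was 0.00, and without replicate 3 it was -0.00.

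In sedentary muscle most members were lower in the knockout than in the wild type, each by a small amount. The median difference, knockout minus wild type, was -0.10, against -0.01 over all genes, and 61 of 71 members were lower, against 54.0% of all genes. None passed, against 0.138% called. At an unadjusted p under 0.05 there were 5 members, all lower, against 7.70% of all genes. The knockout arrays lay wholly below the wild-type arrays for 10 members (Mrpl12, Mrpl24, Mrpl39, Mrpl47, Mrpl48, Mrps23, Mrps30, Mrps33, Mrps35 and Mrps36), against 7.73% of all genes. They lay wholly above for 0, against 5.35%.

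Mrpl16, which lies near the site where transfer RNAs bind the large subunit, read 7.80, 7.92 and 7.92 in wild-type sedentary muscle and 7.82, 7.53 and 7.43 in the knockout. Knockout replicate 1 lay among the wild-type values, and the other 2 lay below them all. The difference of -0.29 (SE 0.10, limma adjusted p = 0.506) had the smallest p-value of the members here. Mrpl39, a mitochondrion-specific protein whose promoter with 2 NRF1 matches is printed above, read 8.49, 8.22 and 8.32 in wild-type arrays, with knockout values of 8.20, 8.04 and 8.06. Its groups did not overlap, by a margin smaller than the spread within either, and differed by -0.25 (SE 0.11, adjusted p = 0.594).

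Mrps33 read 6.76, 6.90 and 6.81 in wild-type sedentary muscle and 6.70, 6.57 and 6.52 in the knockout, a difference of -0.23 (SE 0.10, limma adjusted p = 0.607). Mrps30 read 7.16, 7.26 and 7.48 in wild type against the knockout values of 7.01, 7.06 and 7.16 given above, a difference of -0.22 (SE 0.10, adjusted p = 0.625). In each the highest knockout array lay just under the lowest wild-type array. Mrpl12, the stalk protein that contacts translation factors and is also reported to bind the mitochondrial RNA polymerase, read 7.50, 7.56 and 7.63, then 7.50, 7.47 and 7.03. The difference was -0.23 (SE 0.12, adjusted p = 0.692), and replicate 3 stood apart. The highest difference among the 71 was that of Mrps14, at 0.18 (SE 0.15, adjusted p = 0.821).

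**Figure D3:**
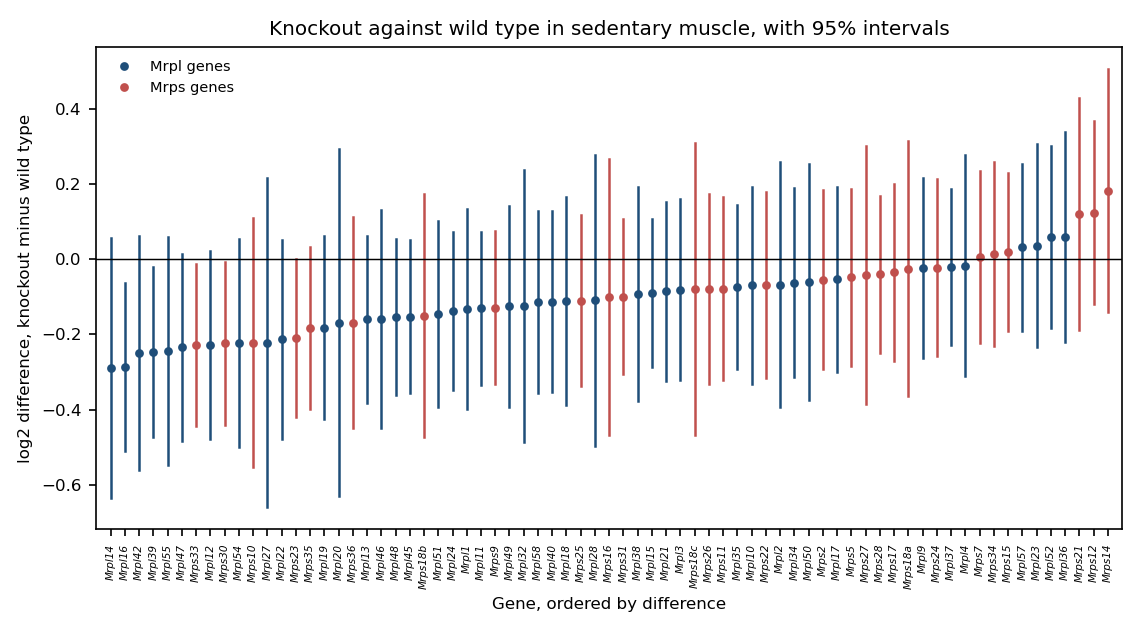
Log2 difference (vertical axis), knockout minus wild type in sedentary muscle, of each of the 71 genes ordered by difference (horizontal axis), with limma's 95% interval (lines), Mrpl genes blue and Mrps genes red. Points below 0 number 61, and the intervals of 5 genes, among them Mrpl16 (-0.29) and Mrpl39 (-0.25), do not reach 0.

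The sedentary difference was uneven across the 3 knockout arrays. Averaged over the 71 genes, the deviation from each gene's 12-array mean was 0.08 in replicate 1, -0.14 in replicate 2 and -0.18 in replicate 3. The other 9 arrays lay between -0.01 and 0.10. Replicate 3 was the lowest of the 12 arrays for 24 members, or 33.8%, against 9.22% of all genes tested, and replicate 2 for 19, or 26.8%, against 7.11%. Replicate 1 was the highest of the 12 for 19 members, against 1324 of all 13747 genes tested. Wild-type exercised replicate 3 was the highest for 16 members, against 1056 of all genes tested. Without knockout replicate 1 the median difference was -0.18, with 68 lower and 18 at an unadjusted p under 0.05. Without replicate 2 it was -0.07, with 51 lower and 2 such members, and without replicate 3 it was -0.06, with 46 lower and 2. Among the other arrays, leaving out wild-type sedentary replicate 2 gave 2 such members, and leaving out wild-type exercised replicate 2, knockout exercised replicate 2 or knockout exercised replicate 3 gave 3. No member passed under any of these. The share of all genes at that mark was not computed in these fits, so the 18 members have no background.

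Marker lists of fibre types and of other tissue also differed between these arrays. The matrix and fibroblast markers, 7 of 8 measured and all 7 above the table's median level on every array, lay 1.09 above their 12-array mean in knockout sedentary replicate 3, 0.25 below it in replicate 2 (-0.25) and 0.15 above it in replicate 1. In the other groups they ranged from -0.18 to -0.07 (wild-type sedentary), -0.10 to 0.13 (wild-type exercised) and -0.32 to -0.19 (knockout exercised). In replicates 1, 2 and 3 the macrophage and leukocyte markers stood at 0.17, -0.28 and 0.42, against -0.15 to 0.16 over the other groups. The slow-fibre markers stood at -0.25, -0.70 and 0.68, against -0.38 to 0.67 over the other groups. The endothelial markers, 5 of 5 measured, stood at 0.11, 0.16 and 0.33, the last the highest of the 12 arrays, against -0.26 to 0.23 over the other groups. The Schwann cell and nerve markers, 4 of 6 measured, stood at -0.38, -0.09 and 0.68, against -0.55 to 0.78 over the other groups. Tendon markers stood at 0.24, -0.01 and 0.07, against -0.21 to 0.14 over the other groups. Adipocyte markers stood at -0.19, 0.28 and 0.21, against -0.31 to 0.38. The skeletal muscle markers stood at 0.03, -0.02 and -0.06. On the same arrays the mitochondrial ribosomal protein genes stood at 0.08, -0.14 and -0.18. The part of these tissues and fibre types in the result was not tested.

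**Figure D4:**
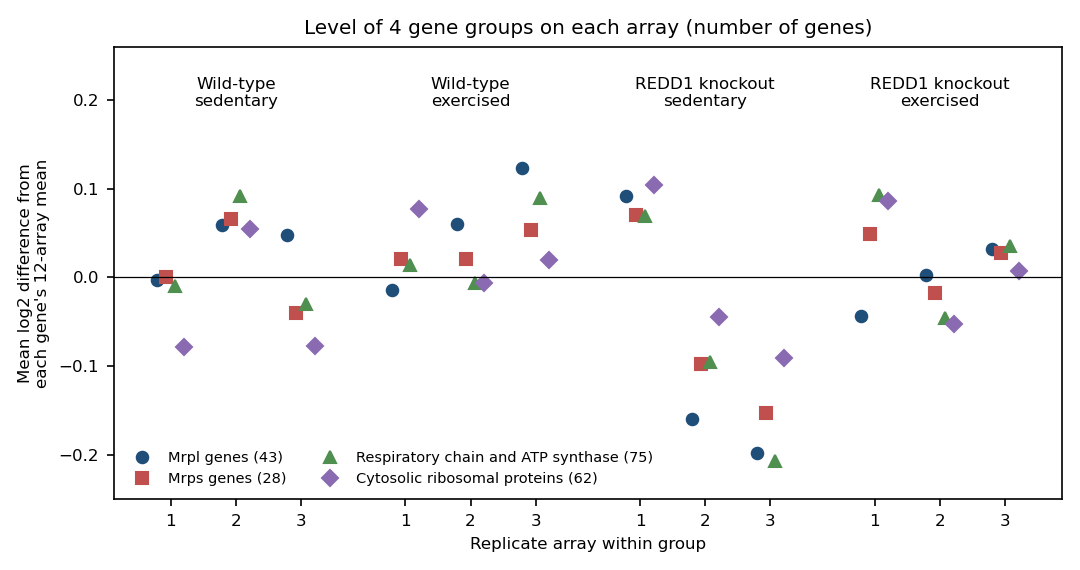
Mean log2 difference from each gene's 12-array mean (vertical axis) on each array (horizontal axis, replicates within the 4 groups) for Mrpl genes, Mrps genes, respiratory chain and ATP synthase genes and cytosolic ribosomal protein genes. In knockout sedentary replicates 2 and 3 the Mrpl points lie at -0.16 and -0.20 and the Mrps points at -0.10 and -0.15, whereas replicate 1 lies at 0.09 and 0.07. The other lists fall in the same order over replicates 1, 2 and 3. Respiratory chain and ATP synthase points lie at 0.07, -0.10 and -0.21, and cytosolic ribosomal protein points at 0.10, -0.04 and -0.09.

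After exercise the median difference, knockout minus wild type, was -0.03, against -0.00 over all genes. Of the members 29 were higher and 42 lower, against 50.7% of all genes lower. None passed, against 0.175% called, and 2 members had an unadjusted p under 0.05, against 6.58% of all genes. That number was 4 without wild-type exercised replicate 1 (median -0.07) or knockout exercised replicate 2 (median -0.02), and 1 without wild-type exercised replicate 2 or knockout exercised replicates 1 or 3. Without wild-type exercised replicate 3 the median was -0.01. The knockout arrays lay wholly below wild type for 8 members (Mrpl12, Mrpl16, Mrpl22, Mrpl45, Mrpl55, Mrpl58, Mrps9 and Mrps10), against 5.67% of all genes, and wholly above for 0, against 6.06%. Mrpl58 is a peptidyl-tRNA hydrolase built into the large subunit, which releases stalled peptides.

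Mrpl55 read 8.16, 8.12 and 8.23 in wild-type exercised muscle and 7.68, 7.81 and 7.72 in the knockout. The gap between the groups was wider than the spread within either, and the gene was 1.35-fold lower (log2 difference -0.43, SE 0.14, limma adjusted p = 0.505). Mrps10, a protein of the small-subunit head, read 7.24, 7.30 and 7.24 in wild-type arrays, with knockout values of 6.58, 7.19 and 6.84. Its difference was -0.39 (SE 0.16, adjusted p = 0.657), and the knockout arrays spread over a wider range than the difference itself. Mrpl45, which holds the large subunit to the inner mitochondrial membrane at the tunnel exit, read 6.72, 6.82 and 6.80, then 6.61, 6.53 and 6.65, a difference of -0.18 (SE 0.10, adjusted p = 0.801). Mrpl22, a tunnel-wall protein whose promoter is printed above, read 6.06, 6.08 and 6.20, then 5.91, 5.97 and 5.80, a difference of -0.22 (SE 0.12, adjusted p = 0.838).

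**Figure D5:**
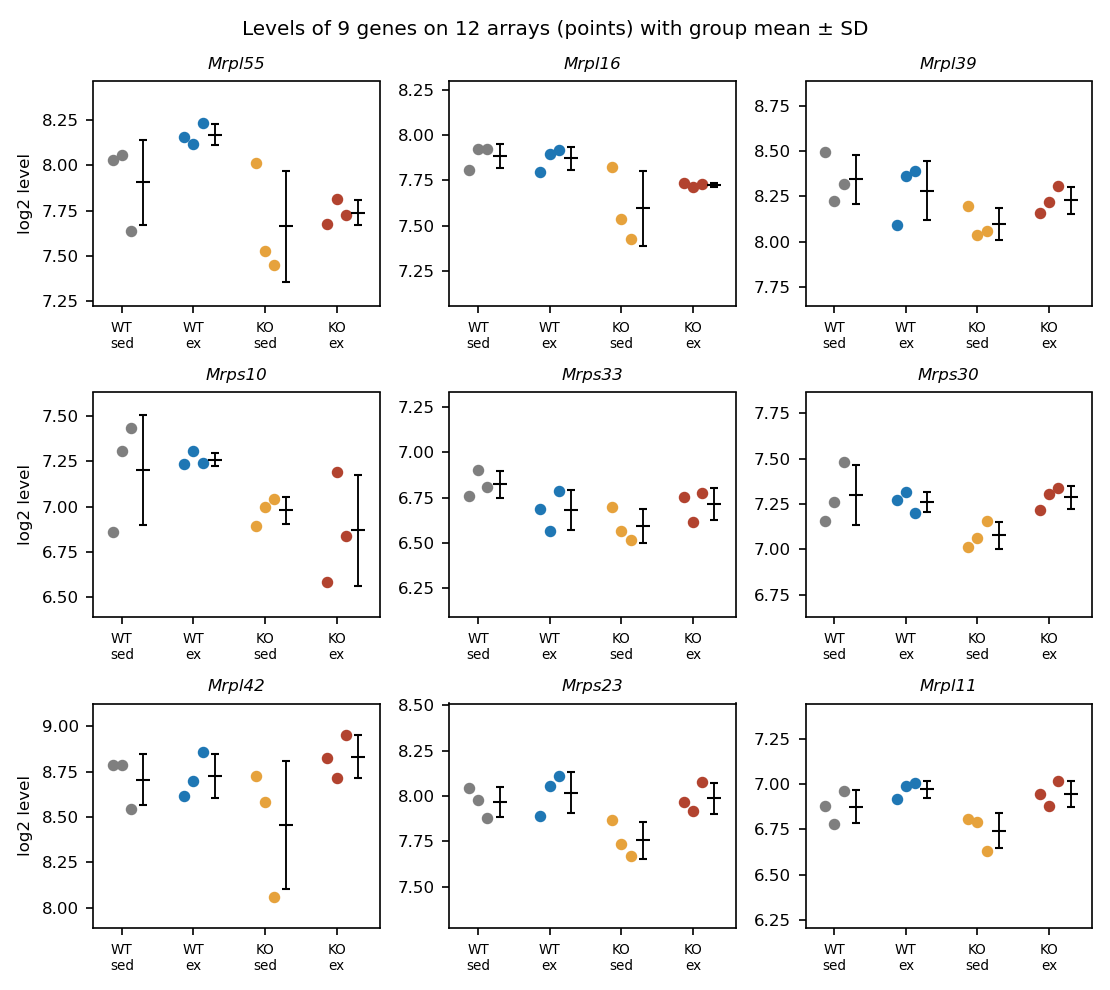
Log2 level (vertical axes, each spanning the same range) of 9 mitochondrial ribosomal protein genes on the 3 arrays of each group (points; WT wild type, KO REDD1 knockout, sed sedentary, ex exercised), with the group mean and SD beside them. Mrpl55 separates by genotype after exercise (8.12 to 8.23 against 7.68 to 7.81), whereas in sedentary muscle its groups overlap.

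Averaged over both conditions, 6 arrays a side, the genotype difference had a median of -0.06, against -0.01 over all genes. Of the members 56 were lower and 15 higher, against 52.6% of all genes lower. None passed, against 0.546% called, and 8 members had an unadjusted p under 0.05, all of them lower, against 9.36% of all genes. That number was 4 without wild-type exercised replicate 2, wild-type exercised replicate 3 or knockout sedentary replicate 3, 5 without wild-type sedentary replicate 3, knockout sedentary replicate 2 or knockout exercised replicate 3, and 14 without knockout sedentary replicate 1. The median was -0.10 without that array and -0.09 without wild-type exercised replicate 1. No share over all genes was computed beside the counts with an array left out. Mrpl55 came nearest to the threshold at -0.34 (SE 0.10, limma adjusted p = 0.200). Without knockout sedentary replicate 1 it was -0.42 with an adjusted p of 0.0473, the only setting of those run in which a member passed. Mrpl16 stood at -0.22 (SE 0.07, adjusted p = 0.314), Mrps10 at -0.31 (SE 0.11, adjusted p = 0.344) and Mrpl45 at -0.17 (SE 0.07, adjusted p = 0.429).

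Averaged over both genotypes, the exercise difference had a median of 0.06, against -0.01 over all genes. Of the members 56 were higher and 15 lower, against 54.3% of all genes lower. None passed, against 1.60% of all genes called, and 1 had an unadjusted p under 0.05, against 11.2% of all genes. Left out in turn, the arrays gave 0 to 9 such members, the highest without knockout sedentary replicate 1 and 4 without wild-type exercised replicate 1. The median was 0.10 without knockout sedentary replicate 1 and 0.03 without replicate 3 of that group. Here too the counts with an array left out have no share over all genes beside them. The member past that mark with all arrays was Mrpl11, at 0.15 (SE 0.07, limma adjusted p = 0.429). Mrpl24 stood at 0.14 (SE 0.07, adjusted p = 0.463), Mrps23 at 0.14 (SE 0.07, adjusted p = 0.479) and Mrpl42 at 0.20 (SE 0.10, adjusted p = 0.511). These averages and the 4 single comparisons share arrays and are not separate evidence.

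By kind of protein, the sedentary genotype difference had a median of -0.12 over 28 large-subunit proteins of bacterial type, 26 of them lower. It was -0.13 over 17 mitochondrion-specific large-subunit proteins, 15 of them lower. It was -0.11 over the 11 genes listed as mitochondrion-specific small-subunit proteins, 10 of them lower, a list that still holds Mrps36 (-0.17) by its name. The 15 small-subunit proteins of bacterial type had a median of -0.04 with 10 lower. No member of any kind passed, and differences between the kinds were not tested. For exercise in the knockout the medians in the same order were 0.08, 0.10, 0.13 and 0.04.

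Several members with well-known roles were close to equal in all 4 groups. Mrps12, at the decoding centre of the small subunit, had group means of 7.36 ± 0.05 (wild-type sedentary), 7.41 ± 0.17 (wild-type exercised), 7.48 ± 0.18 (knockout sedentary) and 7.43 ± 0.07 (knockout exercised; SD, n = 3 each). Mrpl3, which reaches toward the peptidyl transferase centre, had means of 7.38 ± 0.02, 7.35 ± 0.22, 7.30 ± 0.13 and 7.32 ± 0.04 in the same order. Mrpl38, a mitochondrion-specific protein, had 7.75 ± 0.08, 7.82 ± 0.24, 7.66 ± 0.22 and 7.70 ± 0.12. In each of these 3 genes the means differed by no more than the largest SD of a group.

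Defects in several small-subunit proteins cause respiratory chain disease in people, among them MRPS16, MRPS22 and MRPS34. In these mice Mrps16 had means of 6.98 ± 0.27, 6.96 ± 0.21, 6.88 ± 0.32 and 7.10 ± 0.17 in the order above. Mrps22 had 6.84 ± 0.11, 6.92 ± 0.08, 6.78 ± 0.23 and 6.91 ± 0.06, and Mrps34 had 7.48 ± 0.14, 7.51 ± 0.08, 7.49 ± 0.15 and 7.57 ± 0.16. None of the 3 differed between groups beyond its spread. The Mrps18 genes are 3 relatives of 1 bacterial protein, of which Mrps18a is found in the large subunit and Mrps18b and Mrps18c in the small one. On the sedentary knockout arrays Mrps18a read 8.18, 7.49 and 7.51 and Mrps18b read 7.89, 7.58 and 7.18, both highest in replicate 1. Mrps18c read 5.37, 5.40 and 5.20 there and varied more in wild-type sedentary muscle, at 5.70, 5.65 and 4.86.

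For 9 members the array held more than 1 row (Mrpl10, Mrpl12, Mrpl36, Mrpl47, Mrps5, Mrps16, Mrps17, Mrps18b and Mrps18c). Most of the rows not used were dim, but those of Mrps16 and Mrps18b were above the table's median level on all 12 arrays. The second Mrps16 row gave -0.30 for exercise in wild type and 0.26 in the knockout, against -0.02 and 0.22 in the row used. The second Mrps18b row gave -0.21 and 0.01, against 0.01 and 0.23. For knockout against wild type in sedentary muscle the rows gave -0.10 (used) and -0.32 for Mrps16, and -0.15 (used) and -0.07 for Mrps18b. How far the rows lay apart thus varied with the gene and the comparison.

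Other parts of the same machinery were read from lists of the pathway. Among mitochondrial ribosomal proteins with other symbols, 3 of 6 were on the array (Dap3, Ptcd3 and Gadd45gip1), and none passed in any contrast. Their sedentary genotype differences were -0.20 (SE 0.11, limma adjusted p = 0.719), -0.21 (SE 0.22, adjusted p = 0.875) and -0.04 (SE 0.12, adjusted p = 0.956). Dap3 is a GTP-binding protein of the small subunit. Of 14 mitochondrial translation factors tested none passed. In sedentary muscle 13 of them were lower in the knockout, with a median of -0.16. The elongation factor Gfm1 stood at -0.34 (SE 0.10, adjusted p = 0.329) and the recycling factor Gfm2 at -0.31 (SE 0.10, adjusted p = 0.425). The elongation factor Tsfm averaged -0.31 over both conditions (SE 0.08, adjusted p = 0.124).

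None of 22 assembly factors, 16 mitochondrial aminoacyl-tRNA synthetases and 8 genes of mitochondrial DNA expression passed in any contrast either. Their medians for the sedentary genotype difference were -0.09, -0.10 and -0.14, with 13, 13 and 6 genes lower in the same order. Among them C1qbp, a matrix protein linked to ribosome assembly, stood at -0.25 (SE 0.10, limma adjusted p = 0.523). Tfam, which packages mitochondrial DNA and starts its transcription, stood at -0.31 (SE 0.13, adjusted p = 0.594). Polg2, from the list of mitochondrial DNA expression, stood at -0.30 (SE 0.11, adjusted p = 0.497). The synthetase Pars2 was higher, at 0.28 (SE 0.15, adjusted p = 0.713). The 75 tested subunits of the respiratory chain and ATP synthase had a median of -0.10, with 60 lower and none called, and 0.11 for exercise in the knockout, with 68 higher and none called. The 62 cytosolic ribosomal protein genes had medians of 0.04 and 0.01 in the same comparisons. Among the latter 1 gene was called, Rps13, which was higher in the knockout averaged over conditions (log2 difference 1.0, SE 0.21, adjusted p = 0.0451). Differences between these lists and the mitochondrial ribosomal proteins were not tested.

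One regulator of nuclear genes for mitochondrial proteins did respond to exercise. Ppargc1a, the coactivator PGC-1alpha, read 9.33, 8.98 and 9.24 in wild-type sedentary and 10.15, 10.46 and 10.88 in wild-type exercised muscle. In the knockout it read 8.70, 9.61 and 9.29 at rest, then 10.753, 11.003 and 10.948 after exercise. It rose by 1.31 in wild type (SE 0.20, limma adjusted p = 0.00429) and by 1.70 in the knockout (SE 0.20, adjusted p = 0.00100), with no overlap in either. The other 9 regulators tested did not pass in any contrast, among them Nrf1, Gabpa and Yy1, whose motifs were counted above, and Esrra. At this time, 1 hour after exercise, Ppargc1a was thus higher in both genotypes, and no mitochondrial ribosomal protein gene passed the test. Calls were rare among all genes tested, at 0.567% for exercise in wild type and 0.276% for exercise in the knockout. The lack of calls among members therefore does not set them apart from other genes.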

How the data were processed

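Expression was measured on 12 one-colour arrays, 3 per group, and groups were taken from the labels. The deposited table holds the authors' log2 values per array row, read as log2 from their range of 0.357 to 13.9. Partek is named per the submitters' processing notes, while the log base, background correction and normalisation are not given in the sources used here. Array medians lay between 4.52 and 4.60, so normalisation between arrays may already have evened out shifts common to all genes. Of 41345 rows, 23521 had 1 gene symbol in the platform annotation, and 22180 genes remained after the row with the highest mean was kept.

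All 13747 tested genes entered 1 limma model (version 3.58.1, under R 4.3.3) with a mean for each group, 8 residual degrees of freedom and variances moderated with an intensity trend. Tests are two-sided. The script was tested on simulated data. The number of arrays limits the precision. Alternatives were other filters, centring, quantile normalization, other moderation, array weights, the mean over a gene's rows, fits of only the groups compared, and each array left out. Members and lists were chosen with earlier results of these data known. Genes were named if they passed, had 1 of the 4 smallest p-values in a contrast or 1 of the 3 largest or smallest SDs, had a well-known role or had several rows. Those listed for groups without overlap were named after their values were seen. Promoter windows are RefSeq's.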

Additional observations from a re-analysis of the deposited data

How the results depend on the processing

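No member passed in 150 of the 151 combinations of contrast and setting. The exception was the genotype average, where leaving out arrays in turn gave 0 to 1 passing members, the 1 being Mrpl55 without knockout sedentary replicate 1 (-0.42, limma adjusted p = 0.0473). The median over members moved by less than the SD between arrays of its level, 0.0713, in 148 of 151. The other 3 all left out knockout sedentary replicate 1. With arrays left out, the median ranged from 0.0333 to 0.177 for exercise in the knockout, from -0.00125 to 0.139 for the difference of exercise effects and from -0.180 to -0.0579 for genotype in sedentary muscle. Leaving out replicate 3 of that group gave the end nearest 0 or, for the difference of effects, a median below 0. Other settings kept the sedentary median between -0.116 and -0.0885. No paired analysis was possible because the replicate numbers only follow the order of the samples.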
